A study of Homo sapiens with 60 samples.

Results

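The genes described here are 41 genes of DNA replication and S phase, of 60675 genes in the deposited table. They are the subunits that load and run the replicative helicase, the sliding clamp and its loader, the replicative polymerases with primase, the single-strand binding proteins, the enzymes that process and join lagging-strand fragments, and the enzymes that supply deoxynucleotides. They were chosen by name, and all 41 were found by matching Ensembl identifiers to gene symbols. All 41 also passed the filter on low counts, with 238 to 9845 expected counts in every library.

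The study measured mRNA libraries of A549 cells, an established line from a human lung carcinoma, kept for 24 h with a treatment. The treated groups were wortmannin at 10 uM, an inhibitor of phosphoinositide 3-kinases that served as the positive control, and water extracts of 6 medicinal plant materials (Polygalae Radix, Aucklandiae Radix, Zizyphi Semen, Longan Arillus, Schisandrae Fructus and Liriopis seu Ophiopogonis Tuber), each at 20, 100 and 500 ug/mL. The control was Vehicle, given as 0.1% DMSO in the sample labels and as 2% in the series text. Each of the 20 groups had 3 libraries. The series text adds that extracts toxic below the top dose were used at lower, toxicity-based doses, whereas the labels of all 6 extracts give 20, 100 and 500 ug/mL, so the doses are given as labelled. A single line stands for all cells, and nothing says that the 3 libraries of a group came from separate cultures. The p-values therefore measure only the spread between these libraries, which may be technical.

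Before a chromosome is copied, the origin recognition complex with CDC6 and CDT1 loads the MCM2 to MCM7 ring on DNA, and CDC45 and the GINS complex turn it into a working helicase. Polymerase alpha with primase starts each strand, the RFC complex loads the PCNA clamp, and polymerases delta and epsilon extend the strands while RPA coats the single-stranded DNA. FEN1 and LIG1 finish the lagging strand, and ribonucleotide reductase, thymidylate synthase, thymidine kinase and dUTPase keep the deoxynucleotide pools. Many of these genes are targets of E2F transcription factors, which act late in G1 and in S phase. These are bulk libraries, so fewer cells in S phase and less RNA per cell cannot be told apart.

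The libraries held 17.7 to 30.6 M (mega) expected counts, with a median of 24.6 M. The epithelial and A549 markers KRT8 (2919 to 4126 CPM), AKR1B10 (2244 to 3132 CPM) and ALDH1A1 (5405 to 7702 CPM) were high throughout. EPCAM was low at 3.66 to 6.58 CPM. CPM is counts per 1 M counts. Marker levels here were scaled by library totals alone, and levels of the 41 genes also by TMM. CDKN2A, deleted in A549, was at 0 in 56 of 60 libraries and reached at most 1 count. Markers of blood and endothelium stayed at or below 36 counts, and the fibroblast markers DCN and PDGFRB at or below 3 and 9 counts. The other two fibroblast markers were detected in every library, COL1A1 at 18.8 to 33.8 CPM and COL3A1 at 3.54 to 7.16 CPM. Library names fall into 5 numbered sets nested in the treatments: Wortmannin alone, Polygalae with Aucklandiae, Zizyphi with Longan, Schisandrae with Liriopis, and Vehicle alone. In every comparison with Vehicle the set and the treatment cannot be told apart, while extracts of one set, and the doses of one extract, share their set. Polygalae 20 ug/mL replicate 1 stood apart from its group, with a root mean square deviation of 0.160 on the log2 scale against 0.103 for the next library and a median of 0.057, so results that use it are also given without it.

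Promoter windows were searched for a few fixed words, and the share of members that hold each is given beside that of all genes. RefSeq promoter sequences (build GRCh38.p14, 250 bases before to 50 after the listed start) were at hand for 35 of the 41 genes, all except GINS4, MCM4, MCM5, POLD3, RPA2 and RPA3. The 4 E2F-type words TTTCCCGC, TTTGGCGC, TTTCGCGC and TTTGCCGC were searched on both strands. Some genes have several listed starts, and a gene was counted if any of its windows held the word. At least one E2F-type word was found for 18 of the 35 genes (51.4%), against 1090 of all 27305 genes with a listed start (3.99%). The word CCAAT, bound by the factor NF-Y, or its reverse ATTGG was found for 21 of the 35 genes (60%), against 39.7% of all genes. The word TTTGAA, the core of the element that directs late cell-cycle genes, was found for 2 of the 35 genes (5.71%). The shares were 18.2% of all genes and 13 of 18 (72.2%) of a list of mitosis genes.

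The 6 windows below are printed because they cover the range from many E2F-type words to none, and because the levels of their genes are described below. Each runs 5′ to 3′ on the gene's strand, with E2F-type words and CCAAT or ATTGG in capitals. Neighbouring E2F-type words overlap in MCM6 and MCM2, where TTTGGCGCGAAA and TTTCGCGCGAAA each hold one word on each strand. A match is a description of letters, not a binding site or a cause.
MCM6: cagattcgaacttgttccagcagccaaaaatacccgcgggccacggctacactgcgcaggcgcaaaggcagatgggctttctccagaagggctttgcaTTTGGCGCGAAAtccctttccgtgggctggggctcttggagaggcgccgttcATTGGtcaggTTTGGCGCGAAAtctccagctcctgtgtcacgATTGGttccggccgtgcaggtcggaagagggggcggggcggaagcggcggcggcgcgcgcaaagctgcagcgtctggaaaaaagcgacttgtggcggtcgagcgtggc
MCM2: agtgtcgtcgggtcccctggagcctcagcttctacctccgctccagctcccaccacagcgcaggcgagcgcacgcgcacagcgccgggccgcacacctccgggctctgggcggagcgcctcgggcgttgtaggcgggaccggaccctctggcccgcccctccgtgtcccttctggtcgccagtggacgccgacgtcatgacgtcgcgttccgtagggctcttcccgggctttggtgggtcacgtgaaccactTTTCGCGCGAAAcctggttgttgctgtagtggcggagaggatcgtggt
POLA1: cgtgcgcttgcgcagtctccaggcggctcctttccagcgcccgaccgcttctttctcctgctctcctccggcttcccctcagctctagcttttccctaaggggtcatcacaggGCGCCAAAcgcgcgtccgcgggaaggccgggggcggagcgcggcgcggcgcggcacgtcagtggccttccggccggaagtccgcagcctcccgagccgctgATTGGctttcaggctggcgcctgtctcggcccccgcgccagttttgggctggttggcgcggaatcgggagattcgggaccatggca
LIG1: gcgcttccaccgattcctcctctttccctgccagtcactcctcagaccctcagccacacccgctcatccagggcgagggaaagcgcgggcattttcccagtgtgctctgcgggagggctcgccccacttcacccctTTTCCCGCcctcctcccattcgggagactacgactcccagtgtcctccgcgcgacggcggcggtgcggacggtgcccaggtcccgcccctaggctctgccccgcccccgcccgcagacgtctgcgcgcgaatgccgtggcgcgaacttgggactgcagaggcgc
CDC6: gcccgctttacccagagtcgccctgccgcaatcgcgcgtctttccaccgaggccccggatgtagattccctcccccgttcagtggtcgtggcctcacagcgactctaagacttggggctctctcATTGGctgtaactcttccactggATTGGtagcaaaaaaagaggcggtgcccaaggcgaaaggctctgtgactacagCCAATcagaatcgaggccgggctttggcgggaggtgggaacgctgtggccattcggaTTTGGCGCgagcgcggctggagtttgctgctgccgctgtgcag
RRM1: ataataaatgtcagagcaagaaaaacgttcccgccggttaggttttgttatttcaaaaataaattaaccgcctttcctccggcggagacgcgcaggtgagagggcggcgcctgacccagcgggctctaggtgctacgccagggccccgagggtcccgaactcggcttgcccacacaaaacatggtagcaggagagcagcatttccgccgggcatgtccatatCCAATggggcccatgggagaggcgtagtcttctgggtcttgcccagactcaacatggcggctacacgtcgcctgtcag

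The MCM6 window lies on the minus strand at chr2:135876394-135876693 and holds 4 E2F-type words and 2 ATTGG. The MCM2 window (plus strand, chr3:127598161-127598460) holds 2 E2F-type words just after the start, and the POLA1 window (plus strand, chrX:24693668-24693967) holds 1 with its first letter 137 bases before it. The LIG1 window (minus strand, chr19:48170295-48170594) holds 1 at 114 bases before the start, and the CDC6 window (plus strand, chr17:40287629-40287928) holds 1 after the start with 3 CCAAT or ATTGG before it. The RRM1 window (plus strand, chr11:4094435-4094734) holds none, with 1 CCAAT at 28 bases before the start. Among the members that fell with Wortmannin below, 7 of the 16 genes with a listed start (43.8%) held an E2F-type word, against 11 of 19 (57.9%) of those that did not pass the test. For Polygalae at 500 ug/mL the shares were 3 of 6 (50%) among those that fell, against 14 of 27 (51.9%).

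Across the 20 groups the 41 genes varied little. For each gene the highest and lowest group means differed by 0.10 (RFC1, the large clamp loader subunit) to 0.62 (RPA3) on the log2 scale, with a median of 0.24, against a median of 0.27 over all 9523 genes with a mean of at least 10 CPM. The summed level of the 41 genes was 3764 ± 20.9 CPM in Wortmannin (92.8% of Vehicle), 3887 ± 33.7 CPM in Polygalae 500 ug/mL (95.8%) and 4058 ± 22.8 CPM in Vehicle (SD, n = 3 each). The 18 extract groups lay between 95.8% and 102% of Vehicle. Wortmannin held the lowest of the 20 group means for 23 of the 41 genes, and Polygalae 500 ug/mL for 6.

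**Figure D1:**
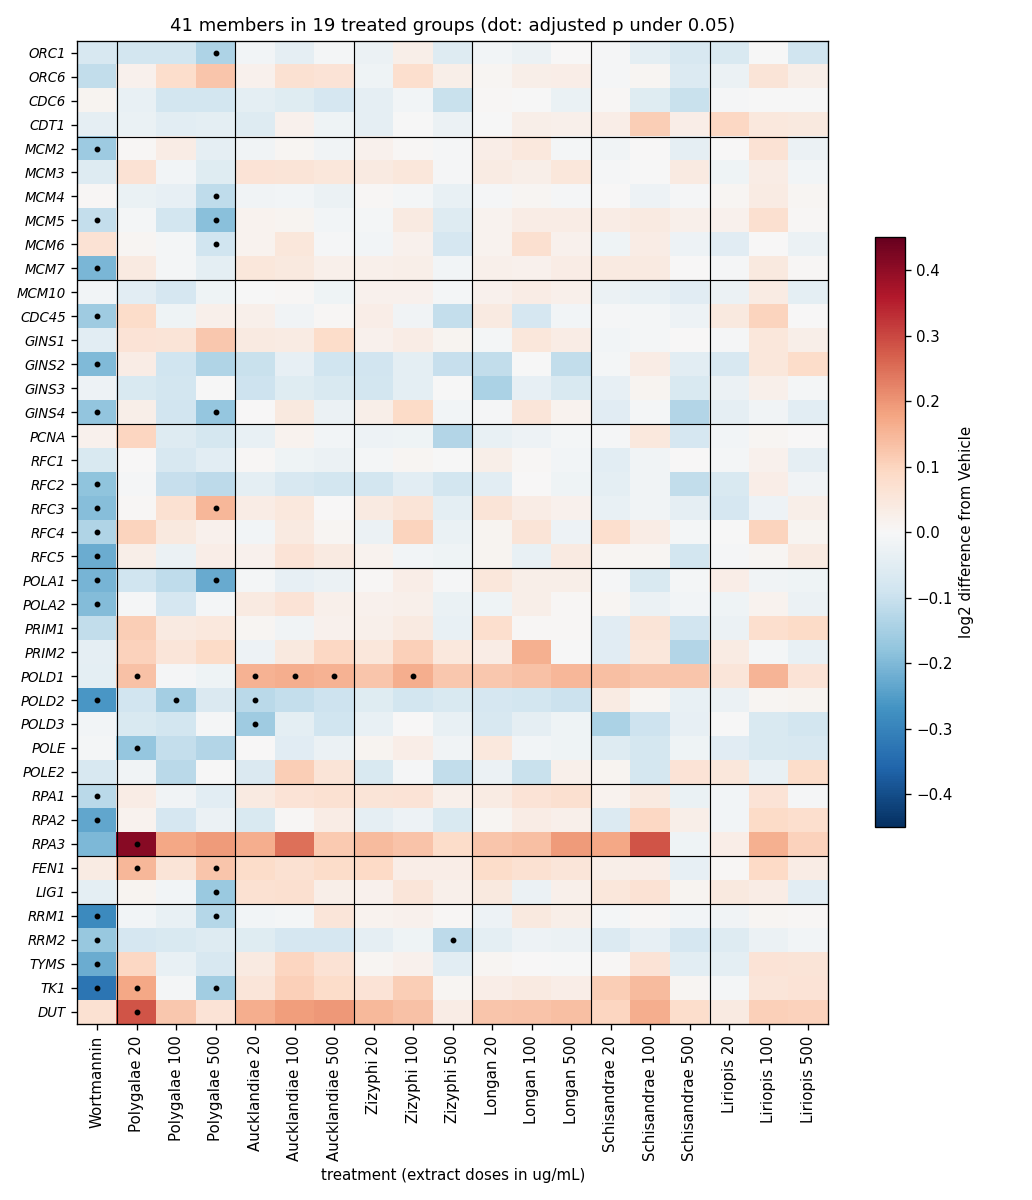
Log2 difference of each treated group from Vehicle (columns, 19 groups) for the 41 genes (rows, ordered by role), with a dot where the edgeR adjusted p was under 0.05. Most dots stand in the Wortmannin column (19) and the Polygalae 500 ug/mL column (11).

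Genes across most of the replication machinery were slightly lower with Wortmannin than in Vehicle. Of the 41 genes, 19 fell and 0 rose at an adjusted p under 0.05 in edgeR's quasi-likelihood test with Benjamini-Hochberg adjustment over all genes tested (DESeq2 also called 19; at an unadjusted p under 0.05, 20 were lower and 1 was higher). Of all 17368 genes tested, 19.5% fell and 18% rose, and of the 9523 genes with at least 10 CPM 32.7% fell and 18.6% rose. The 41 genes had a median log2 difference of -0.11 (range -0.33 to 0.070), against 0.008 over all genes and -0.044 over those with at least 10 CPM. In 22 of the 41 genes every Wortmannin library was below every Vehicle library, in 1 every one was above, and in 18 they overlapped (all genes tested: 25.6% below, 25.4% above). These last shares include genes under 10 CPM and were not taken for genes with at least 10 CPM alone. With scaling by library totals alone the median of all genes moved to 0.075, and 14 members fell and 2 rose (MCM6 0.13 and FEN1 0.10), while over all genes 2094 fell and 4377 rose. RFC2, CDC45, MCM5, RPA1 and RFC4 lost their calls there (-0.12, -0.092, -0.039, -0.056 and -0.069 in this order).

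**Figure D2:**
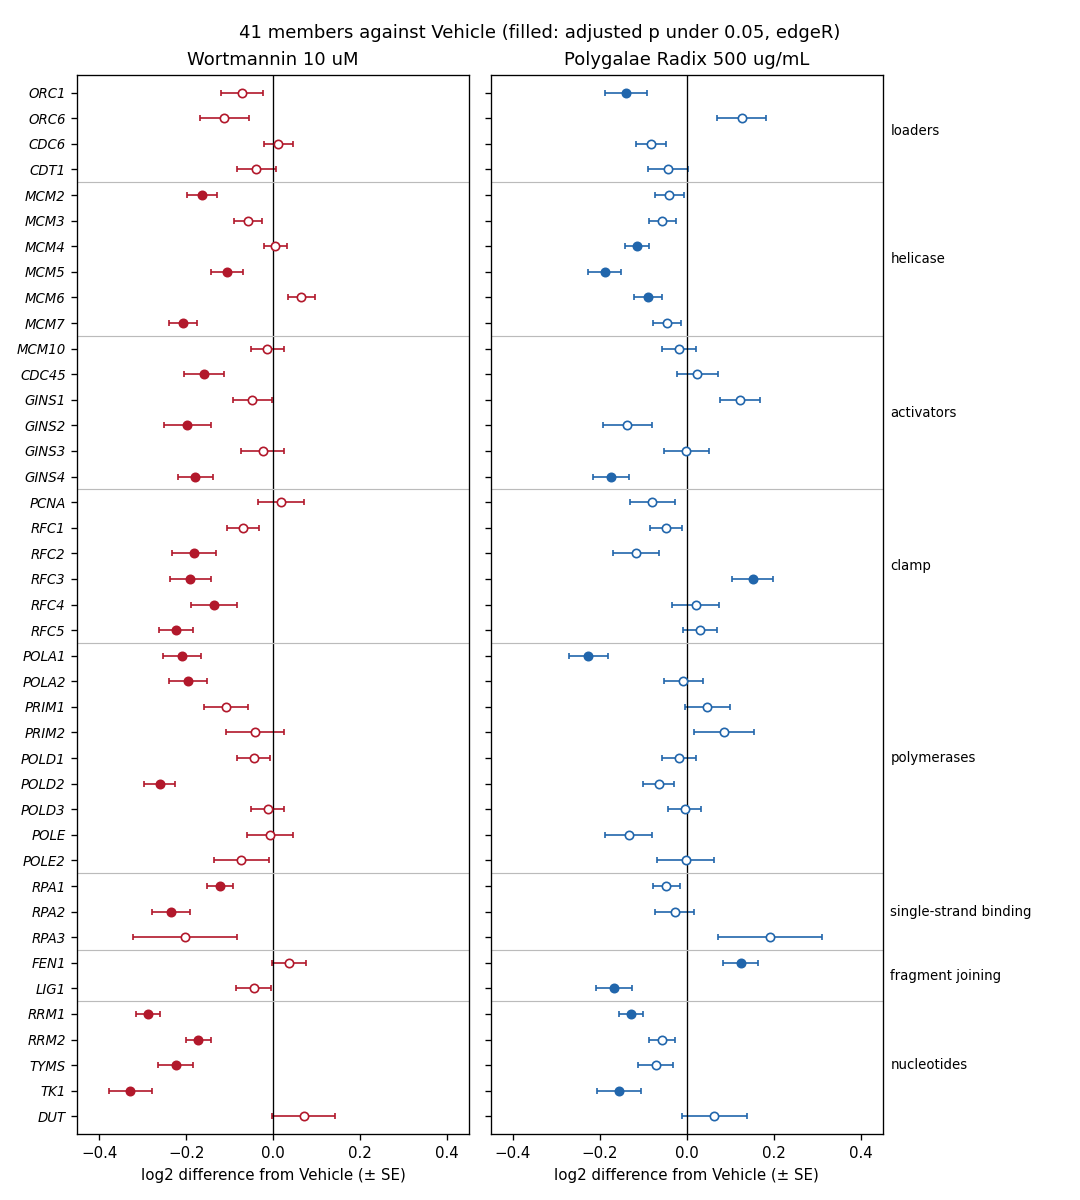
Log2 difference from Vehicle (horizontal axis, point ± SE) of the 41 genes in role order, for Wortmannin 10 uM on the left and Polygalae Radix 500 ug/mL on the right; filled points had an edgeR adjusted p under 0.05. In Wortmannin 19 points are filled, all left of 0, and in Polygalae 11 are filled, 9 left and 2 right of 0.

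The loaders of the helicase did not pass the test with Wortmannin. The log2 differences were -0.072 for ORC1 and -0.11 for ORC6, subunits of the origin recognition complex, 0.012 for CDC6 and -0.039 for CDT1. The helicase ring itself was split: MCM7, MCM2 and MCM5 fell, and MCM3 (-0.058), MCM4 (0.005) and MCM6 (0.065) did not pass. MCM7 had 279.6, 266 and 281 CPM in the Wortmannin libraries, against 317, 319 and 318 CPM in the Vehicle libraries (log2 difference -0.21 ± 0.032 (SE), edgeR adjusted p = 3.53e-07). MCM2 had 106, 107 and 103 CPM with Wortmannin, against 117, 120.5 and 116 CPM in Vehicle (log2 difference -0.16 ± 0.034 (SE), edgeR adjusted p = 6.92e-05). For both genes no Wortmannin library reached a Vehicle library. MCM6 went the other way in rank, with 163.5, 163 and 166 CPM in Wortmannin, all above the 155, 157 and 159 CPM of Vehicle, but its adjusted p in edgeR was 0.111. MCM7 lies at chr7:100092728-100101940 and shares 8.94% of its exonic bases with AP4M1 on the opposite strand, and MCM2 shares 22.7% with an opposite-strand gene, so a share of reads could belong to the partner if counting did not use strand.

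Among the activators, GINS2, GINS4 and CDC45 fell and the other 3 did not pass (MCM10 -0.014, GINS1 -0.048 and GINS3 -0.024). GINS2, a subunit of the complex that holds CDC45 on the ring, had 43.6, 46.0 and 44.2 CPM with Wortmannin, against 51.8, 52.0 and 49.65 CPM in Vehicle (log2 difference -0.20 ± 0.054 (SE), edgeR adjusted p = 0.00279). GINS4, another subunit, had 61.7, 63.6 and 61.1 CPM with Wortmannin, against 71.6, 70.5 and 68.9 CPM in Vehicle (log2 difference -0.18 ± 0.040 (SE), edgeR adjusted p = 0.000225). The groups did not overlap for either gene. GINS4 shares 21.2% of its exonic bases with an opposite-strand gene. CDC45, which joins the ring to form the active helicase, had 24.1, 24.7 and 23.9 CPM in Wortmannin and 25.75, 28.1 and 27.25 CPM in Vehicle (log2 difference -0.16 ± 0.046 (SE), edgeR adjusted p = 0.00452). Without Vehicle replicate 2 the CDC45 call was lost (log2 difference -0.13, edgeR adjusted p = 0.0519). The MCM5 call (-0.11, edgeR adjusted p = 0.017) was lost without Vehicle replicate 2 (-0.092), Vehicle replicate 3 (-0.10) or Wortmannin replicate 3 (-0.098).

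The small subunits of the clamp loader fell together while the clamp did not pass. RFC5, RFC3, RFC2 and RFC4 fell, and PCNA (0.018) and the large subunit RFC1 (-0.069) did not pass. RFC5 had 52.95, 51.35 and 50.7 CPM in Wortmannin, against 61.3, 60.4 and 59.3 CPM in Vehicle, with every Wortmannin library lower (log2 difference -0.22 ± 0.039 (SE), edgeR adjusted p = 4e-06). RFC3 had 48.3, 50.8 and 45.9 CPM in Wortmannin, against 56.2, 54.2 and 55.1 CPM in Vehicle, again without overlap (log2 difference -0.19 ± 0.047 (SE), edgeR adjusted p = 0.000903). RFC2 (log2 difference -0.18, edgeR adjusted p = 0.00313) passed in every run that left out a library. RFC4 (-0.14, edgeR adjusted p = 0.0377) lost its call without Vehicle replicate 1 (-0.13), Vehicle replicate 2 (-0.12), Wortmannin replicate 2 (-0.14) or Wortmannin replicate 3 (-0.12).

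Of the 9 polymerase and primase subunits 3 fell with Wortmannin, near the share of all genes with at least 10 CPM that fell (32.7%). POLD2, the second subunit of polymerase delta (chr7:44114681-44124358, minus strand), had 128, 129 and 122.8 CPM in Wortmannin, against 149.5, 153 and 151.5 CPM in Vehicle (log2 difference -0.26 ± 0.035 (SE), edgeR adjusted p = 1.54e-08). POLA1, the catalytic subunit of polymerase alpha that extends the primer, had 48.4, 53.2 and 50.8 CPM in Wortmannin, against 59.1, 58.35 and 58.6 CPM in Vehicle (log2 difference -0.21 ± 0.044 (SE), edgeR adjusted p = 8.13e-05). Every Wortmannin library was lower than every Vehicle library for both genes. POLA2, the accessory subunit of polymerase alpha, also fell (log2 difference -0.20 ± 0.044 (SE), edgeR adjusted p = 0.000276), but 35.1% of its exonic bases lie under another gene on the same strand. The catalytic subunits POLD1 (-0.045) and POLE (-0.008) did not pass, nor did the primase subunits PRIM1 (-0.11) and PRIM2 (-0.041), POLD3 (-0.013) and POLE2 (-0.073).

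Of the RPA trimer, RPA2 and RPA1 fell. RPA2, the middle subunit, had 34.9, 31.55 and 30.6 CPM in Wortmannin, against 37.4, 39.8 and 37.0 CPM in Vehicle, with no overlap (log2 difference -0.24 ± 0.044 (SE), edgeR adjusted p = 1.58e-05). RPA1, the large subunit that holds most of the DNA-binding surface, had a log2 difference of -0.12 (edgeR adjusted p = 0.000801), and RPA3, the small subunit, did not pass at -0.20 ± 0.119 (SE). RPA3 had 23.1, 22.1 and 21.65 CPM in Wortmannin, all below the 26.6, 24.6 and 25.8 CPM of Vehicle. ORC6 and PRIM1, which did not pass either, were also lower in every Wortmannin library. The enzymes of fragment processing also did not pass: FEN1, the flap nuclease, was at 0.036 and LIG1, the ligase that seals the nicks, at -0.045.

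The largest falls of the 41 genes were in deoxynucleotide supply, where 4 of 5 fell. TK1, cytosolic thymidine kinase (chr17:78174075-78187233, minus strand), had 117, 114.5 and 113 CPM in Wortmannin, against 143, 146.5 and 143 CPM in Vehicle (log2 difference -0.33 ± 0.050 (SE), edgeR adjusted p = 2.62e-07). RRM1, the large subunit of ribonucleotide reductase (chr11:4094707-4138876, plus strand), had 161, 160.2 and 161 CPM in Wortmannin, against 195.5, 199.5 and 194 CPM in Vehicle (log2 difference -0.29 ± 0.027 (SE), edgeR adjusted p = 2.84e-13). RRM1 libraries differed by less than 2 CPM within Wortmannin, and no library of either gene overlapped with Vehicle. RRM2, the small reductase subunit, had 270.4, 274 and 271 CPM in Wortmannin, against 304, 313 and 302 CPM in Vehicle (log2 difference -0.17 ± 0.029 (SE), edgeR adjusted p = 1.65e-06). TYMS, thymidylate synthase, had 104.5, 102 and 109 CPM in Wortmannin, against 122.8, 125 and 121 CPM in Vehicle (log2 difference -0.22 ± 0.040 (SE), edgeR adjusted p = 6.26e-06). Both pairs of groups were separate. TYMS shares 39.1% of its exonic bases with the opposite-strand gene ENOSF1, and RRM2 shares 20.2% with another gene on the same strand. RRM2 has 3 and TYMS 2 pseudogenes named after them, which could take part of the reads. DUT, which removes dUTP, did not pass at 0.070. It has 8 such pseudogenes and shares 14.5% of its exonic bases with an opposite-strand gene.

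**Figure D3:**
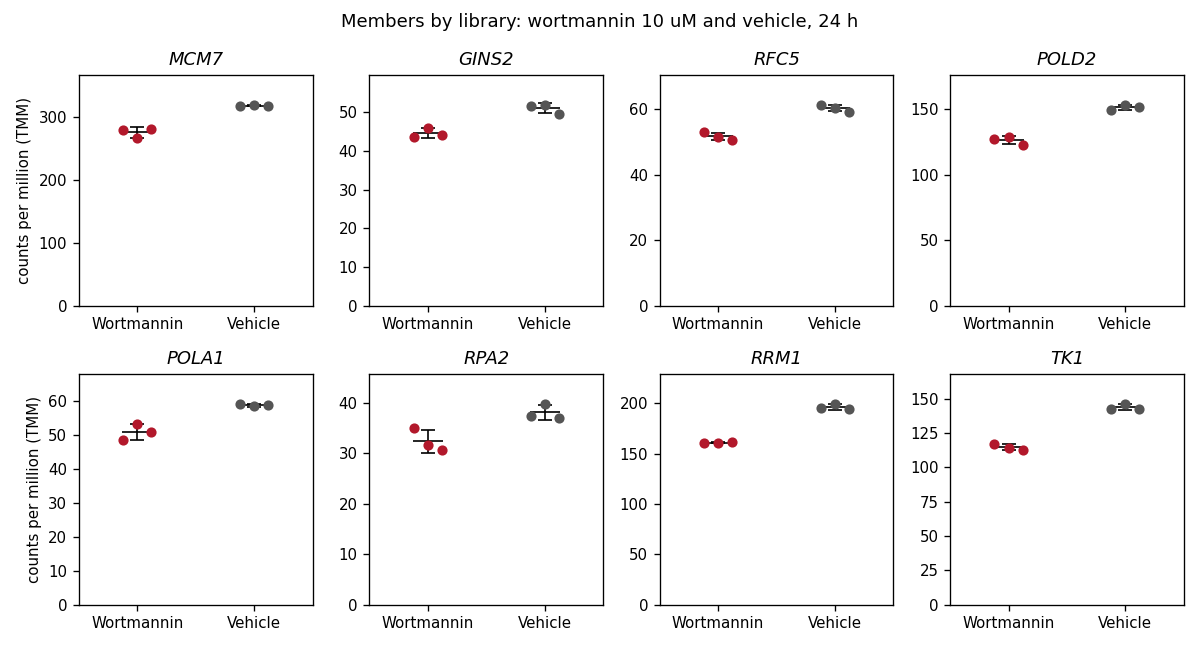
Level in CPM (vertical axis, from 0) of 8 genes, 1 or 2 from each of 6 roles, in the 3 Wortmannin and 3 Vehicle libraries; points are libraries, and the line and bars are the mean ± SD. In each of the 8 panels all Wortmannin points lie below all Vehicle points.

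The replication genes had a smaller median fall than a list of 21 mitosis genes in the same libraries. All 21 mitosis genes fell with Wortmannin (log2 differences -0.92 to -0.27, median -0.59, led by KIF20A, CCNB1, PLK1 and CDC20), and their summed level was 66.5% of Vehicle, against 92.8% for the 41 replication genes. The replication-dependent histones, whose mRNAs normally end without a poly(A) tail, went the other way: 4 of 9 rose and 0 fell (median 0.22). Scaled to library totals, the summed histone level was 50.2 CPM in Wortmannin and 40.0 CPM in Vehicle. The part of the histone level in the members' differences was not tested.

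**Figure D4:**
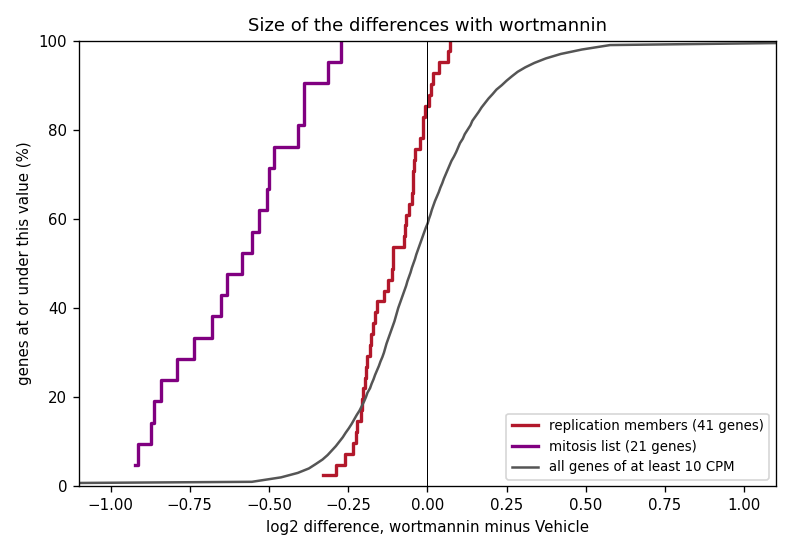
Cumulative percentage of genes (vertical axis) against the log2 difference of Wortmannin from Vehicle (horizontal axis) for the 41 replication genes, 21 mitosis genes and 9523 genes with a mean of at least 10 CPM. The medians are -0.11, -0.59 and -0.044.

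Other genes of the pathway outside the 41, taken from lists, differed by list with Wortmannin, where 32.7% of all genes with at least 10 CPM fell and 18.6% rose (median -0.044). Of 15 partners of origin licensing and firing, 9 fell and 1 rose (median -0.15). DBF4 (-0.55) and CDC7 (-0.22), the 2 parts of the kinase that fires origins, were among those that fell, with TICRR (-0.22) and ORC3 (-0.21), and DONSON rose (0.16). Of 20 fork and checkpoint genes, 11 fell and 1 rose (median -0.17). TOP2A (-0.51), the topoisomerase that untangles copied DNA, TIPIN (-0.34), ATRIP (-0.30) and POLE3 (-0.28) fell, and POLD4 (0.37), the small subunit of polymerase delta, rose.

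Of 18 genes of nucleotide supply, 13 fell and 2 rose with Wortmannin (median -0.16). NME1 (-0.59) and DTYMK (-0.53), kinases that phosphorylate nucleoside diphosphates and dTMP, CTPS1 (-0.35), which makes CTP, and PAICS (-0.33), of purine synthesis, fell furthest. The mitochondrial thymidine kinase TK2 (0.26) and the dNTP-cleaving SAMHD1 (0.21) rose. Of 15 E2F and S-phase control genes 4 fell and 2 rose (median -0.025), near the shares of all genes with at least 10 CPM: cyclin A2, CCNA2, was at -0.63, E2F7 at -0.18, CDC25A at -0.12 and CDK2 at -0.10, and the E-type cyclins CCNE2 and CCNE1 both at 0.30. Of 10 genes of S-phase chromatin 4 fell and 2 rose (median -0.075). The histone chaperones ASF1A (-0.42) and NASP (-0.17), DNMT1 (-0.21), which copies DNA methylation, and LMNB1 (-0.20) fell, and HELLS (0.15) and UHRF1 (0.12) rose.

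With Polygalae Radix at 500 ug/mL, fewer of the 41 genes passed the test against Vehicle, and they came from most of the roles. In edgeR, 9 fell and 2 rose, while 9.48% of all genes tested fell and 10.4% rose (13.5% and 15% of those with at least 10 CPM). The median of the 41 was -0.045, against 0.001 over all genes. In 20 of the 41 genes every Polygalae library was below every Vehicle library, and in 6 above (all genes tested, also those under 10 CPM: 18% and 18.9%). With scaling by library totals alone 5 members fell and 4 rose (ORC6, GINS1, RFC3 and FEN1), beside 1112 lower and 2495 higher over all genes, whose median was then 0.039. ORC1, MCM4, MCM6 and TK1 lost their calls there (-0.10, -0.076, -0.051 and -0.12 in this order).

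Among loading and helicase genes, MCM5, MCM4, MCM6 and ORC1 fell with Polygalae 500 ug/mL. MCM5 (chr22:35400063-35425430, plus strand) had 118, 125 and 119.6 CPM with Polygalae, against 135, 140 and 138 CPM in Vehicle, with every Polygalae library lower (log2 difference -0.19 ± 0.037 (SE), edgeR adjusted p = 8.44e-05). MCM4 had 268, 261 and 258.5 CPM with Polygalae, against 284, 287 and 282 CPM in Vehicle, also without overlap (log2 difference -0.11 ± 0.027 (SE), edgeR adjusted p = 0.00124). ORC1, the ATPase subunit of the origin recognition complex, had 41.4, 44.0 and 40.3 CPM with Polygalae and 44.5, 46.2 and 47.9 CPM in Vehicle (log2 difference -0.14 ± 0.049 (SE), edgeR adjusted p = 0.0362). The ORC1 call was lost without Vehicle replicate 2 (-0.14), Vehicle replicate 3 (-0.11), Polygalae replicate 1 (-0.13) or Polygalae replicate 3 (-0.11). MCM6 had 149, 144.5 and 149 CPM with Polygalae and 155, 157 and 159 CPM in Vehicle (log2 difference -0.089 ± 0.033 (SE), edgeR adjusted p = 0.0462), and its call was lost whichever single library of either group was left out (-0.097 to -0.074). MCM2 (-0.040), MCM3 (-0.056) and MCM7 (-0.045) did not pass. GINS4 had 65.1, 62.8 and 58.8 CPM with Polygalae, against 71.6, 70.5 and 68.9 CPM in Vehicle, and fell (log2 difference -0.18 ± 0.041 (SE), edgeR adjusted p = 0.000904).

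At the fork, POLA1 and LIG1 fell and RFC3 and FEN1 rose with Polygalae 500 ug/mL. POLA1 had 51.8, 49.9 and 48.9 CPM with Polygalae, against 59.1, 58.35 and 58.6 CPM in Vehicle, and all 3 Polygalae libraries were lower (log2 difference -0.23 ± 0.045 (SE), edgeR adjusted p = 9.51e-05). LIG1 had 68.8, 79.4 and 73.0 CPM with Polygalae, against 83.8, 81.9 and 82.9 CPM in Vehicle (log2 difference -0.17 ± 0.041 (SE), edgeR adjusted p = 0.00162), and the call was lost without Polygalae replicate 1 (-0.12). RFC3 had 62.1, 61.3 and 60.2 CPM with Polygalae, against 56.2, 54.2 and 55.1 CPM in Vehicle, all higher (log2 difference 0.15 ± 0.048 (SE), edgeR adjusted p = 0.0161), and the call was lost without Vehicle replicate 2 (0.14) or Polygalae replicate 1 (0.14). FEN1 had 109.5, 114 and 124 CPM with Polygalae and 104, 106.5 and 107.5 CPM in Vehicle, again all higher (log2 difference 0.12 ± 0.040 (SE), edgeR adjusted p = 0.0186). That call was lost without Vehicle replicate 1 (0.11) or Polygalae replicate 3 (0.076). POLE (-0.13), PCNA (-0.079), RFC2 (-0.12) and POLD2 (-0.065) did not pass.

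In deoxynucleotide supply RRM1 and TK1 fell. RRM1 had 179.7, 179 and 180.4 CPM with Polygalae, against 195.5, 199.5 and 194 CPM in Vehicle (log2 difference -0.13 ± 0.027 (SE), edgeR adjusted p = 0.000289). TK1 had 121.5, 139.6 and 126 CPM with Polygalae, against 143, 146.5 and 143 CPM in Vehicle (log2 difference -0.16 ± 0.050 (SE), edgeR adjusted p = 0.019). Both genes were lower in all 3 Polygalae libraries, but the TK1 call was lost without Vehicle replicate 2 (-0.14), Polygalae replicate 1 (-0.11) or Polygalae replicate 3 (-0.14). RRM2 (-0.057), TYMS (-0.072) and DUT (0.063) did not pass. Of the 11 genes called, MCM5, MCM4, GINS4, POLA1 and RRM1 passed whichever single library was left out. The count was 6 without Polygalae replicate 1 and 7 without Vehicle replicate 2 or Polygalae replicate 3.

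The other lists stand beside 13.5% lower and 15% higher among all genes with at least 10 CPM. S-phase chromatin had 5 of 10 genes lower and 0 higher with Polygalae 500 ug/mL (median -0.12, led by UHRF1 at -0.23, DNMT1 at -0.19, NASP at -0.14 and HELLS at -0.12). Of nucleotide supply, 7 of 18 fell and 2 rose (median -0.070), among them CAD (-0.21), which starts pyrimidine synthesis, and GMPS (-0.17) and PAICS (-0.16) of purine synthesis, which were lower, and TK2 (0.24) and DCK (0.20) higher. Fork and checkpoint genes had 4 of 20 lower, ATAD5 (-0.19), which unloads the clamp, TOP2A (-0.18), CLSPN (-0.15) and TOP1 (-0.12), and 1 higher, DSCC1 (0.16). Licensing partners had 0 of 15 lower and 1 higher (DBF4 0.18). Of E2F and S-phase control genes 2 of 15 fell (E2F8 -0.36 and CDKN1A -0.14) and CDKN1B rose (0.17). The shares that fell in this list and the fork list were near that of all genes with at least 10 CPM. Of 21 mitosis genes 9 fell and 0 rose (median -0.081), with KIF20A (-0.32), CENPE (-0.30), PLK1 (-0.21) and CDC20 (-0.19) lowest. Histone genes fell in 4 of 9 (median -0.42; H2BC5 -0.53, H2AC6 -0.52, H2BC12 -0.48 and H1-2 -0.43), and the summed histone level was 31.5 CPM with Polygalae 500 ug/mL and 40.0 CPM in Vehicle, on the scale of library totals. COL1A1 and COL3A1 fell too, by log2 differences between -0.43 and -0.35. The part of either in the members' differences was not tested.

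Polygalae and Aucklandiae Radix extracts come from one library set, so their direct contrast at 500 ug/mL does not rest on Vehicle. In edgeR, 11 of the 41 genes fell and 1 rose in Polygalae relative to Aucklandiae, while 7.03% of all genes fell and 8.19% rose (9.93% and 11.8% of those with at least 10 CPM). The median of the 41 was -0.036, against -0.003 over all genes. TK1 had 121.5, 139.6 and 126 CPM with Polygalae, against 155, 155 and 148 CPM with Aucklandiae (log2 difference -0.24 ± 0.050 (SE), edgeR adjusted p = 0.000239). RRM1 had 179.7, 179 and 180.4 CPM with Polygalae, against 202, 205 and 204.5 CPM with Aucklandiae (log2 difference -0.18 ± 0.027 (SE), edgeR adjusted p = 5.06e-07). Neither gene overlapped between the extracts.

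POLA1 had 51.8, 49.9 and 48.9 CPM with Polygalae, against 57.2, 56.9 and 59.2 CPM with Aucklandiae (log2 difference -0.20 ± 0.045 (SE), edgeR adjusted p = 0.000641). LIG1 had 68.8, 79.4 and 73.0 CPM with Polygalae, against 82.85, 87.5 and 82.5 CPM with Aucklandiae (log2 difference -0.19 ± 0.041 (SE), edgeR adjusted p = 0.000317). MCM5 had 118, 125 and 119.6 CPM with Polygalae, against 138, 138 and 134 CPM with Aucklandiae (log2 difference -0.18 ± 0.037 (SE), edgeR adjusted p = 0.00025). These 3 genes were also separate between the extracts. POLD1, the catalytic subunit of polymerase delta, had 82.8, 82.3 and 80.6 CPM with Polygalae, against 92.0, 93.2 and 92.5 CPM with Aucklandiae (log2 difference -0.18 ± 0.039 (SE), edgeR adjusted p = 0.000537), and RPA1 was at -0.12 (edgeR adjusted p = 0.00392). These 7 genes passed whichever single library was left out.

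The other 5 calls of this contrast were each lost in at least 1 run that left out a library. GINS4 (-0.15) was lost without Polygalae replicate 3 (-0.11) or Aucklandiae replicate 1 (-0.12). TYMS (-0.14) was lost without Polygalae replicate 2 (-0.13), Aucklandiae replicate 1 (-0.12) or Aucklandiae replicate 2 (-0.13). MCM3 (-0.11) was lost without Polygalae replicate 3 (-0.078), Aucklandiae replicate 1 (-0.095) or Aucklandiae replicate 2 (-0.10). MCM4 (-0.088) was lost without Polygalae replicate 2 (-0.084), Polygalae replicate 3 (-0.077) or Aucklandiae replicate 2 (-0.083). RFC3, which rose (0.15), was lost without Polygalae replicate 1 (0.14), Polygalae replicate 2 (0.15) or Aucklandiae replicate 2 (0.12).

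Polygalae 500 ug/mL and Wortmannin lay in different library sets, so set and treatment cannot be told apart here either, and differed in 22 of the 41 genes, with 18 higher and 4 lower in Polygalae, while 23.9% of all genes were higher and 20.1% lower (38.2% and 20.2% of those with at least 10 CPM). The share of the 41 that was higher lay near that of genes with at least 10 CPM, and the share that was lower lay under it. The median of the 41 was 0.070, near the 0.065 of genes with at least 10 CPM. RFC3 had 62.1, 61.3 and 60.2 CPM with Polygalae, against 48.3, 50.8 and 45.9 CPM with Wortmannin (log2 difference 0.34 ± 0.048 (SE), edgeR adjusted p = 2.47e-08). RRM1 was also higher in Polygalae (log2 difference 0.16 ± 0.027 (SE), edgeR adjusted p = 2.17e-06). The largest other rises were RPA3 (0.39), RFC5 (0.25) and ORC6 (0.24). In the other direction MCM6 had 149, 144.5 and 149 CPM with Polygalae, against 163.5, 163 and 166 CPM with Wortmannin (log2 difference -0.15 ± 0.033 (SE), edgeR adjusted p = 9e-05), and LIG1 (-0.12), MCM4 (-0.12) and CDC6 (-0.093) were lower too. With scaling by library totals alone the split was 15 higher and 7 lower, while 20.2% of all genes were higher and 22.4% lower (median -0.026). RPA1 (0.047), RFC4 (0.13) and PRIM1 (0.13) lost their calls, and 19 of the 22 were still called. MCM5 (-0.11), PCNA (-0.13) and POLE (-0.15) were called lower in that run only. RPA1 (0.076) lost its call in 5 of the 6 runs that left out a library (0.064 to 0.080), RFC4 (0.16) without Wortmannin replicate 3 (0.14) or Polygalae replicate 1 (0.12), and TK1 (0.17) without Polygalae replicate 2 (0.11). The LIG1 call was lost without Wortmannin replicate 2 (-0.10) or Polygalae replicate 1 (-0.073), the CDC6 call without Wortmannin replicate 2 (-0.087) or Polygalae replicate 1 (-0.079), and 17 of the 22 passed whichever single library was left out.

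Within the Polygalae series, TK1, GINS4 and MCM5 fell with dose. The slope is the log2 change per 5-fold step in dose over the 9 libraries at 20, 100 and 500 ug/mL. Of all genes tested, 2.44% fell and 3.23% rose. These shares, and those given from here on, include genes under 10 CPM. TK1 had 182, 152 and 154 CPM at 20 ug/mL, 139, 143 and 147 CPM at 100 ug/mL and 121.5, 139.6 and 126 CPM at 500 ug/mL (slope -0.17 ± 0.035 SE, edgeR adjusted p = 0.00977). MCM5 had 133, 141 and 136 CPM, then 127.5, 129.6 and 133 CPM, then 118, 125 and 119.6 CPM at the same doses (slope -0.093 ± 0.022 SE, edgeR adjusted p = 0.0249). Every library at 500 ug/mL lay below every one at 20 ug/mL for both genes. GINS4 had 75.4, 71.3 and 68.6 CPM, then 69.4, 63.7 and 65.5 CPM, then 65.1, 62.8 and 58.8 CPM (slope -0.10 ± 0.028 SE, edgeR adjusted p = 0.0404). The TK1 library with 182 CPM is the one that stood apart. Without it 4.33% of all genes fell and 4.7% rose, and 8 of the 41 fell: TK1 (-0.13), LIG1 (-0.12), POLA1 (-0.11), MCM5 (-0.10), GINS4 (-0.086), MCM3 (-0.062), RRM1 (-0.060) and RPA1 (-0.058). Without the 500 ug/mL replicate 1 none of the 41 passed (TK1 -0.15, GINS4 -0.12 and MCM5 -0.083), and with scaling by library totals alone MCM5 (-0.083) and GINS4 (-0.095) did not. MCM5 was also lost without the 20 ug/mL replicate 2 (-0.083) or 3 (-0.096) or the 500 ug/mL replicate 3 (-0.088), and GINS4 without any single one of the other libraries at 100 and 500 ug/mL or the 20 ug/mL replicate 2 (-0.11 to -0.088).

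**Figure D5:**
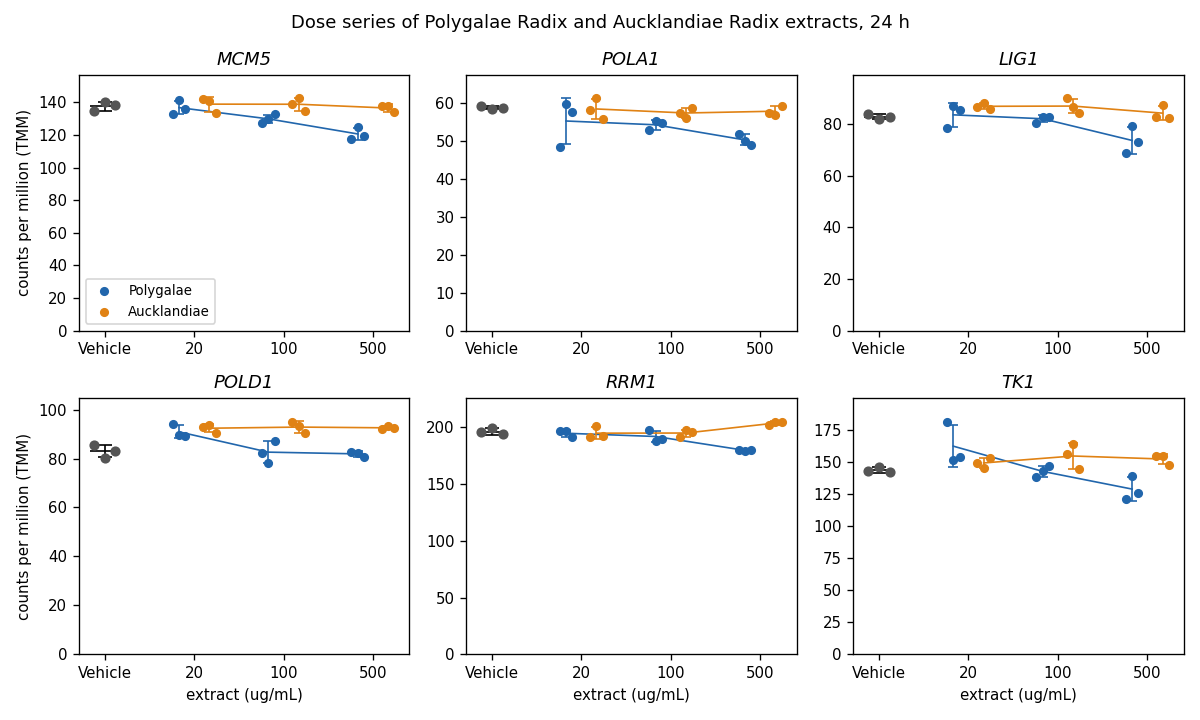
Level in CPM (vertical axis, from 0) of 6 genes in Vehicle and at 20, 100 and 500 ug/mL of Polygalae Radix (blue) and Aucklandiae Radix (orange); points are libraries, bars are mean ± SD of 3. At 500 ug/mL all Polygalae points of the 6 genes lie below all Aucklandiae points.

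The dose slope of Polygalae was lower than that of Aucklandiae for TK1 (difference -0.18 ± 0.042 SE, edgeR adjusted p = 0.0122) and RRM1 (-0.091 ± 0.025 SE, edgeR adjusted p = 0.0354), tested as an interaction over the 18 libraries of this set, in which 1.5% of genes fell and 2.84% rose. Without the library that stood apart 4 genes passed: TK1 (-0.14), RRM1 (-0.090), MCM5 (-0.087) and POLA1 (-0.10), with 2.31% of genes lower and 3.51% higher. No other single library was left out of this test. TK1 with Aucklandiae had 149.5, 145 and 154 CPM at 20 ug/mL, 156, 164 and 144.5 CPM at 100 ug/mL and 155, 155 and 148 CPM at 500 ug/mL. The dose slopes of the other 5 extracts passed the edgeR test for 0 of the 41 genes (DESeq2 also 0). At an unadjusted p under 0.05 there were 2 genes for Liriopis, 3 for Schisandrae, 1 for Longan, 3 for Zizyphi and 2 for Aucklandiae. Of all genes 0.0314%, 0.0553%, 0.0186%, 0.359% and 1.1% were called in these slopes, in the same order. Without Zizyphi 20 ug/mL replicate 1 the Zizyphi slope passed for 1 member, PCNA, which fell.

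Fewer members passed at the lower Polygalae doses. At 100 ug/mL 1 gene fell, POLD2, which had 133, 139 and 136 CPM with Polygalae, against 149.5, 153 and 151.5 CPM in Vehicle (log2 difference -0.15 ± 0.036 (SE), edgeR adjusted p = 0.00134), while 5.27% of all genes fell and 7.51% rose. At 20 ug/mL 5 rose and 1 fell, while 6.59% of all genes rose and 5.54% fell: RPA3 (0.41), DUT (0.28), TK1 (0.18), FEN1 (0.15) and POLD1 (0.13) rose, and POLE fell (-0.17). RPA3 had 45.4, 29.1 and 28.3 CPM at 20 ug/mL in replicates 1 to 3, against 26.6, 24.6 and 25.8 CPM in Vehicle. DUT had 63.5, 47.1 and 49.2 CPM at 20 ug/mL, against 40.8, 45.2 and 44.9 CPM in Vehicle, and POLE had 125, 149.7 and 160.3 CPM at 20 ug/mL, against 161, 165 and 165 CPM in Vehicle. In each of these 3 genes replicate 1, the library that stood apart, was farthest from Vehicle. Without it none of the 6 passed (RPA3 0.16, DUT 0.14, POLD1 0.11, FEN1 0.11, TK1 0.089 and POLE -0.078), and POLD2 fell (-0.13, edgeR adjusted p = 0.0252). Without replicate 3 instead, 10 members passed. That run kept replicate 1, which stood apart, and its share of all genes called is not given. RPA3, DUT, POLE and POLD1 were also lost without 1 Vehicle library each or more: RPA3 without replicate 2 (0.38), DUT without replicate 1 (0.24), POLE without replicate 2 or 3 (-0.17 in both) and POLD1 without replicate 2 (0.11).

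Few members passed with the other extracts. POLD1 rose with Aucklandiae at each dose: it had 85.5, 80.35 and 83.2 CPM in Vehicle, 92.8, 93.9 and 90.5 CPM at 20 ug/mL, 95.0, 93.1 and 90.4 CPM at 100 ug/mL and 92.0, 93.2 and 92.5 CPM at 500 ug/mL. The log2 differences from Vehicle were 0.16, 0.16 and 0.16, with edgeR adjusted p = 0.0157, 0.0137 and 0.007. Of all genes 1.38%, 1.08% and 2.24% rose at these doses, and 1.61%, 0.967% and 2.7% fell. POLD1 also rose with Zizyphi at 100 ug/mL (0.16, edgeR adjusted p = 0.0249; 0.271% of all genes rose and 0.328% fell). Each of these 4 calls was lost without Vehicle replicate 2, the lowest of the Vehicle libraries for POLD1, with values of 0.13, 0.14, 0.13 and 0.14 in the order given. The Zizyphi call was lost in all but 1 of the other runs too (0.15 to 0.17), and the Aucklandiae calls at 20 ug/mL without that group's replicate 1 (0.15) or 2 (0.14) and at 100 ug/mL without its replicate 1 (0.145). At 20 ug/mL Aucklandiae also had POLD3, an accessory subunit of the same polymerase, lower (log2 difference -0.16 ± 0.038 (SE), edgeR adjusted p = 0.0119) and POLD2 lower (log2 difference -0.12 ± 0.036 (SE), edgeR adjusted p = 0.0467). POLD2 was lost in every run that left out a library (-0.13 to -0.11), and POLD3 without Vehicle replicate 2 (-0.15) or Aucklandiae replicate 2 (-0.14). With Zizyphi at 500 ug/mL RRM2 fell: it had 280.3, 281.5 and 285 CPM with Zizyphi, against 304, 313 and 302 CPM in Vehicle (log2 difference -0.12 ± 0.029 (SE), edgeR adjusted p = 0.0167; 0.915% of all genes fell and 0.898% rose). That call was lost without Vehicle replicate 2 (-0.10), Zizyphi replicate 1 (-0.11) or Zizyphi replicate 2 (-0.12).

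Liriopis, Schisandrae and Longan at every dose, and Zizyphi at 20 ug/mL, had 0 of the 41 genes past the edgeR threshold. Few genes of any kind were called there: at 20, 100 and 500 ug/mL 0.0864%, 0.00576% and 0.00576% of all genes with Liriopis, 0.196%, 1.4% and 0.478% with Schisandrae, 0.0173%, 0.132% and 0.104% with Longan, and 0.363% with Zizyphi at 20 ug/mL. At an unadjusted p under 0.05 there were 1, 4 and 1 genes with Liriopis at 20, 100 and 500 ug/mL, 4, 7 and 6 with Schisandrae, 5, 5 and 4 with Longan and 2 with Zizyphi at 20 ug/mL, and DESeq2 called at most 2. The smallest p was that of POLD1 in 7 of these 10 groups, with log2 differences of 0.12 to 0.15. The gene next to it in rank was FEN1 with Liriopis at 100 ug/mL and Zizyphi at 20 ug/mL (0.090 in both), TK1 with Schisandrae at 100 ug/mL (0.14), GINS4 at 500 ug/mL (-0.13), and GINS3, PRIM2 and POLD2 with Longan at 20, 100 and 500 ug/mL (-0.14, 0.16 and -0.096). In the other 3 groups the leading pairs were CDT1 (0.093) and RRM2 (-0.058) with Liriopis at 20 ug/mL, POLD3 (-0.081) and ORC1 (-0.089) with Liriopis at 500 ug/mL, and POLD3 (-0.14) and POLD1 (0.14) with Schisandrae at 20 ug/mL. The same-set contrasts at 500 ug/mL also had 0 calls by either tool, with 6 genes at an unadjusted p under 0.05 for Zizyphi against Longan (RRM2 smallest, log2 difference -0.092) and 7 for Schisandrae against Liriopis (PRIM1 smallest, -0.17), where 0.213% and 0.328% of all genes were called. Without Liriopis replicate 3 the Schisandrae contrast had 3 calls (CDC6, RFC5 and TYMS, all lower).

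All 18 extract groups are set against the same 3 Vehicle libraries, so a gene that lies on one side in many of them counts those libraries again each time. DUT was above Vehicle in 18 of 18 group means (44.7 to 53.3 CPM, against 43.6 CPM in Vehicle), and RRM2 was below it in 18 of 18 (282 to 304 CPM, against 306 CPM). POLD1 was above Vehicle in 16 of 18 (81.9 to 92.9 CPM over the 18 groups, median 90.7, against 83.0 CPM) and below it with Polygalae at 100 and 500 ug/mL. RPA3 and FEN1 were above in 17, and POLD3 below in 17.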

How the data were processed

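Expected counts per gene, not whole numbers in 10.7% of values, were deposited by the authors for 60 libraries of A549 cells. Per the labels' protocols, RNA with an integrity number above 7 went into directional mRNA libraries read as 100-base pairs. The genome build GRCh38 and the tools RSEM 1.3.3, STAR 2.7.3a, Trim Galore 0.6.5 and FastQC 0.11.9 are listed in the submitters' processing notes; the strand setting of the counting is not given in the sources used here. Symbols came from a gene table for 56558 genes and from GENCODE 29 for 497, and 3620 genes had none. The library sets were read from the library names in the labels.

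Here, expected counts were rounded, genes were filtered with filterByExpr over the 20 groups (17368 kept; 15896 to 16360 in the slope fits), scaled with TMM and tested with edgeR 4.0.16 (quasi-likelihood, R 4.3.3) over all genes, with Benjamini-Hochberg adjustment. Comparisons of groups used 1 fit over all 60 libraries, and slopes the 9 libraries of an extract. Levels are TMM-scaled CPM, except marker levels and the summed histone levels, which are scaled by library totals alone. CPM is not divided by gene length, so levels are not compared between genes. No 2 replicate libraries agreed within sampling noise (chi-square per degree of freedom between replicates 2.03 to 25.3). Depth was 17.7 to 30.6 M counts, and a member's lowest count was 238. Promoter words were counted in RefSeq windows.

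Named members are those past the threshold, up to 8 falls and 4 rises per comparison, or the smallest p where none passed. Others are named to account for all 41, and pathway genes past the threshold by up to 4 of the largest changes each way; 1 pathway gene is not reported here. The members, lists and tests were chosen with earlier results of these data known. Alternatives were DESeq2 1.42.0, relative log expression scaling, library totals, no filter, the libraries of 2 groups only, a replicate block and leaving out each library.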

Additional observations from a re-analysis of the deposited data

Results flagged for a closer look

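For 2 genes the response to dose differed between extracts of the same library set, tested as an interaction between dose and extract over 18 libraries. The slope of TK1 per 5-fold dose step was lower with Polygalae than with Aucklandiae by a log2 difference of -0.18 (edgeR adjusted p = 0.0122), and that of RRM1 by -0.09 (edgeR adjusted p = 0.0354). Both passed also without the Polygalae library that stood apart, at -0.14 for TK1 and -0.090 for RRM1. The interaction was added outside the planned comparisons, and no other single library was left out of it. The Polygalae slope of RRM1 by itself did not pass with all its libraries (-0.060, edgeR adjusted p = 0.131), but passed without the one that stood apart (-0.060, edgeR adjusted p = 0.042).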

How the results depend on the processing

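Numbers in this paragraph count members called, and the percentage in brackets is the share of all genes called in the same run (for DESeq2, of genes given an adjusted p). No call reversed. For named genes DESeq2, relative log expression scaling and the replicate block kept all 81 calls, no filter on low counts kept 68, the libraries of 2 groups only kept 71 of 78, and scaling by library totals kept 63 of 81. Scaling by library totals gave Longan 500 ug/mL 1 (0.173%), Zizyphi 500 0 (1.65%), Aucklandiae 500 5 (7.4%), Aucklandiae 20 1 (4.11%) and the Polygalae slope 1 (5.35%). No filter gave Zizyphi 500 0 (1.11%), Aucklandiae 500 2 (2.68%), Schisandrae 100 2 (2.32%) and Aucklandiae 100 3 (1.83%). DESeq2 gave Longan 500 1 (0.853%), Zizyphi 500 2 (3.77%), Aucklandiae 500 2 (8.5%), Liriopis 100 1 (0.368%), Schisandrae 100 1 (5.67%), Polygalae 100 2 (12.4%), Aucklandiae 100 2 (5.04%), Schisandrae 20 2 (1.31%) and the Polygalae slope 6 (8.85%). Fitting 2 groups' libraries only gave Longan 500 3 (3.31%), Zizyphi 500 4 (6.25%), Polygalae 500 18 (26.2%), Aucklandiae 500 4 (11.6%), Schisandrae 100 2 (2.36%), Longan 100 1 (3.51%), Polygalae 100 5 (18.7%), Aucklandiae 100 4 (6.37%), Longan 20 1 (3.36%), Polygalae 20 0 (0.0189%), Aucklandiae 20 5 (7.33%) and Zizyphi against Longan 1 (0.83%). The following was chosen after seeing the data: without the library that stood apart, Longan 500 had 1 (0.351%), Aucklandiae 500 2 (7.38%), Schisandrae 100 2 (5.56%), Polygalae 100 2 (15.3%), Aucklandiae 100 2 (4.02%), Schisandrae 20 1 (0.714%), Polygalae 20 1 (3.73%), the Polygalae slope 8 (9.02%) and the slope difference 4 (5.82%). In the group fit of all 60 libraries, the difference between Polygalae 500 and 20 ug/mL, divided by 2, was called for 15 (17.2%). That run fits no slope, and the 100 ug/mL libraries do not enter the difference. The cause of the change in count was not tested. The slope difference was not part of the runs that left out each library in turn. For counts from those runs, here and above, the share of all genes is given only for the library that stood apart. Leaving out each library gave 16 to 19 for Wortmannin, 6 to 10 for Polygalae 500, 1 to 10 for Polygalae 20, 1 in all for Polygalae 100, 0 to 1 for Zizyphi 500, Zizyphi 100, Aucklandiae 500 and Aucklandiae 100, 0 to 2 for Aucklandiae 20, 8 to 12 for Polygalae against Aucklandiae, 19 to 22 for Polygalae against Wortmannin, 0 to 3 for Schisandrae against Liriopis (3 without Liriopis replicate 3), 0 to 1 for the Zizyphi slope, 0 to 8 for the Polygalae slope and 0 in all for the rest. Replicate numbers do not pair the libraries (same-numbered deviations correlated at -0.191 to 0.262, with every pair over 0.1 in 0 of 23 comparisons, and 27 of 69 pairs best with their own number). With the replicate block the counts were 19 for Wortmannin (37.7%), 12 for Polygalae 500 (20%), 2 for Polygalae 100 (12.9%), 12 for Polygalae against Aucklandiae (15.3%) and 22 for Polygalae against Wortmannin (44.1%). Members with differences near 0.1 on the log2 scale, such as MCM5 with Wortmannin and MCM6 with Polygalae, lost their calls in some of these runs.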
